A study of Mus musculus with 12 samples.

Results

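Whole retinas of mice bred to lack Shp2 in rods were compared with whole retinas of heterozygous controls, gene by gene and by groups of cell-type and pathway genes. The comparison took the 6 whole-retina libraries, 3 KO and 3 Het, of the 12 libraries in the series. The other 6 were rod-enriched libraries made by ribosome pull-down. Libraries were taken by their labels, tissue and genotype, and not by their values. The table lists 56748 genes, of which 16863 had values high enough to be tested.

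All animals carried i75-Rod-Cre, in which a rod-specific promoter drives Cre, and all were homozygous for RiboTag, an allele that tags the ribosomal protein Rpl22 with hemagglutinin wherever Cre is active. The Het mice had 1 floxed Shp2 allele and 1 intact allele (Shp2fl/+), so by design their rods keep a single working copy. The KO mice had both alleles floxed (Shp2fl/fl). The controls therefore were not wild type, although the sample titles call them wt. The mice were 2 weeks old, tissue was frozen after perfusion with cycloheximide, and polyadenylated RNA was amplified with a full-length cDNA kit. The labels do not say whether replicates came from separate animals, so p-values measure the spread between these samples, which may be partly technical.

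Shp2, encoded by Ptpn11, is a cytoplasmic tyrosine phosphatase that passes signals from receptor tyrosine kinases, through adaptors such as Gab1 and Grb2, to Ras and the ERK kinases. Rods are the photoreceptors for dim light and the most numerous cells of the mouse retina. Their outer segments carry the visual pigment, transducin and a cGMP phosphodiesterase, and rods and Müller glia form the adherens junctions at the outer retinal boundary.

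No gene was called different between KO and Het retina. A call required an adjusted p under 0.05 and a log2 fold change beyond 0.5 in limma on log2(scaled value + 2), and 0 of 16863 genes (0%) reached it. The lowest adjusted p was 0.399. The study reports Slc29a1, Rps18-ps5 and Gm49909 as differentially regulated in its own comparison of retinal mRNA. Its text does not state the test used. Here these genes did not pass in limma on the scaled values, and their values are given below. At an unadjusted p under 0.05 there were 140 genes (0.83%), 82 higher in KO (0.486%) and 58 lower (0.344%), and 21 genes (0.125%) had an unadjusted p under 0.01. With single libraries left out, the count under 0.05 ran from 77 (without KO replicate 1) to 232 (without KO replicate 3). It was 292 with the GC trend removed and 81 with the replicate block. Without any overlap between the genotypes were 591 genes (3.5%), 295 above (1.75%) and 296 below (1.76%). With 3 independent libraries against 3, groups that do not differ separate fully with a probability of 0.1, and 3.5% lies below that. The 0.83% at an unadjusted p under 0.05 likewise lies below the nominal share of 0.05. The reason was not tested, so the 3.5% is a low yardstick for list members without overlap. Since no gene passed, differences are given as values below, in many cases with the 95% interval.

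A p that misses the threshold does not bound a change, so the 95% confidence interval of each log2 fold change was read as well. It lay wholly inside 2-fold for 12711 genes (75.4%) and inside 1.5-fold for 6262 genes (37.1%). These intervals are per gene and are not adjusted for the number of genes. The median log2 fold change over all genes tested was 0.01, the middle 95% of genes ran from -0.46 to 0.55, and the interval reached a median of 0.57 to either side, a factor of 1.48. Genes with higher values were bounded more often. Inside 2-fold were 36.4% of genes with a mean scaled value under 50, 72.9% of those from 50 to 200, 90.8% of those from 200 to 1000 and 96.1% of those at 1000 or more. The deposited values are already scaled, with totals of 14525527 to 14527992 per library. From the steps between low values, the reads behind the totals were estimated as 17300000, 12900000 and 14600000 for Het replicates 1 to 3 and 9990000, 13200000 and 19200000 for KO replicates 1 to 3, so KO replicate 1 was the shallowest.

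**Figure D1:**
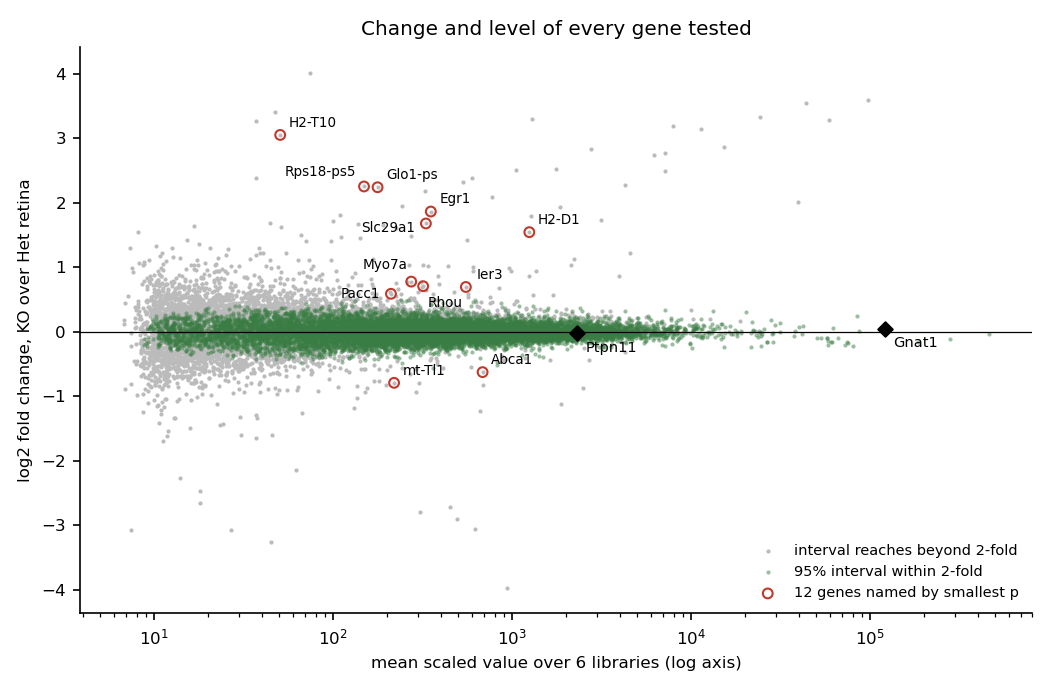
Log2 fold change of KO over Het retina (vertical) against the mean scaled value over the 6 libraries (horizontal, log axis), 1 point per gene tested. Green points have a 95% interval inside 2-fold, circles mark the 12 named genes, and diamonds mark Ptpn11 and Gnat1 near 0.

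On average, libraries of different genotype were not further apart than libraries of the same genotype. Over the genes tested, the root mean square log2 difference averaged 0.604 over the 9 pairs between genotypes (0.476 to 0.847), 0.694 over the 3 Het pairs and 0.64 over the 3 KO pairs. Several libraries stood apart in ways the labels do not give. KO replicate 2 had a value of 1209 for Xist, the transcript of the inactive X, and 0 for the Y-linked genes Ddx3y, Eif2s3y, Kdm5d and Uty. The other 5 libraries had 0 for Xist and values of 278 to 968 for those Y-linked genes.

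Lens RNA differed far more between libraries than between genotypes. The 21 lens genes took 0.00123%, 1.91% and 1.75% of the Het libraries and 0.49%, 1.18% and 6.61% of the KO libraries. Cryaa, the alpha-crystallin and the most abundant of them, had values of 40, 99285 and 68755 in Het against 28764, 52463 and 322302 in KO. Het replicate 1 was nearly free of lens RNA and KO replicate 3 held the most, while Het replicates 2 and 3 lay above KO replicates 1 and 2. The median log2 fold change of the 17 lens genes tested was 2.84, with 0 of 17 bounded within 2-fold and 0 with an unadjusted p under 0.05. Without Het replicate 1 and KO replicate 3 that median was -1.39. Lim2 was listed at 0 in all 6 libraries. Of the 20 genes that varied most within genotypes, 15 were on the lens list.

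Markers of the retinal pigment epithelium, the pigmented layer behind the photoreceptors, varied in a similar way. Their 13 genes, led by the melanin enzyme Dct, took 0.0271%, 0.0176% and 0.083% in Het against 0.00644%, 0.0163% and 0.148% in KO, highest in replicate 3 of each genotype. Of the 12 tested, 0 were bounded within 2-fold. Rpe65, the visual cycle isomerase, had values of 102, 119 and 272 in Het against 17, 72 and 485 in KO. Red blood cell genes, led by Hbb-bs, took 0.00638%, 0.0183% and 0.00273% in Het against 0.0054%, 0.00253% and 0.0144% in KO, with 0 of 5 tested bounded. The libraries also differed by base composition. The median deviation of the 10% of genes highest in GC content minus that of the lowest 10% was -0.24, 0.86 and -0.84 log2 in Het and 0.01, -0.63 and 0.90 in KO.

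**Figure D2:**
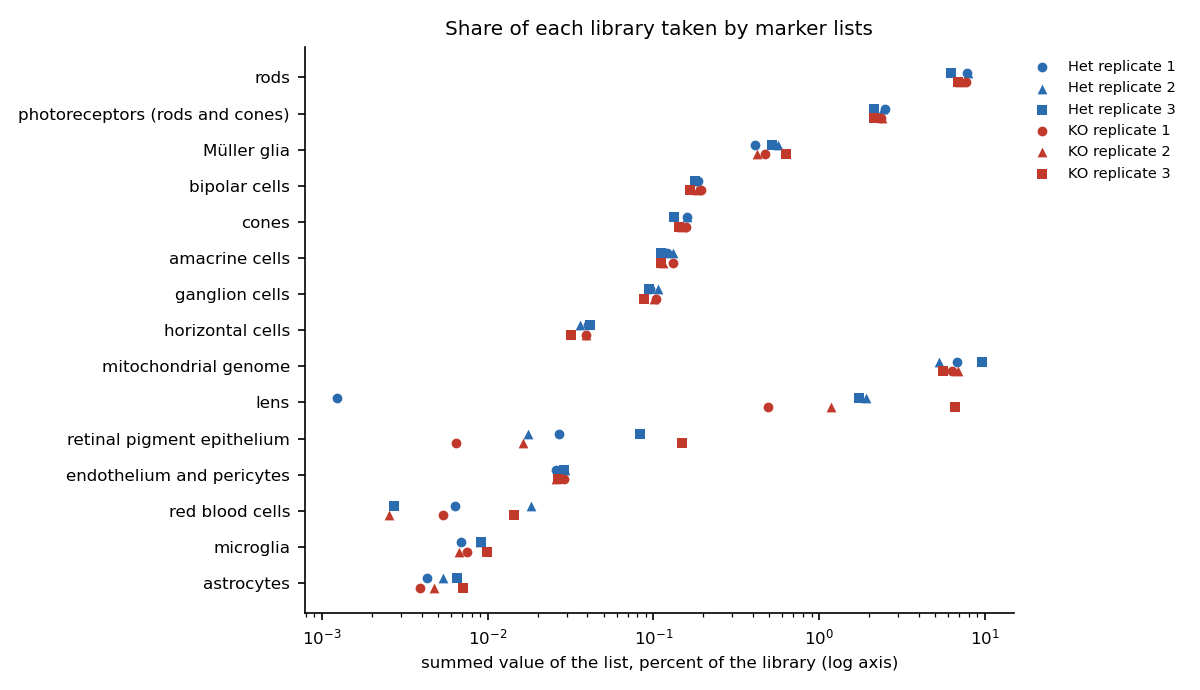
Summed values of marker lists as a percentage of each library (horizontal, log axis), blue for Het and red for KO, with 1 symbol per replicate. Neuronal lists sit close together, whereas lens spans 0.00123% to 6.61% and pigment epithelium 0.00644% to 0.148%.

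Ptpn11 itself did not differ beyond the spread between libraries in whole-retina RNA. Its deposited values were 2390, 2512 and 2125 in Het against 2205, 2147 and 2466 in KO, and the groups overlapped. The log2 fold change was -0.03 (95% interval -0.35 to 0.30, limma adjusted p = 1), which bounds the change in total Ptpn11 RNA inside 1.5-fold. The value sums reads over the whole gene, and reads from the stretch that Cre removes were not separated here, so it does not check the deletion. Whole retina also holds cells in which Cre does not act, and in bulk RNA fewer cells of a type and less RNA per cell cannot be told apart. In the rod-enriched libraries Ptpn11 had values of 2511, 2439 and 2431 in Het against 1735, 2139 and 1971 in KO. The change in rods minus that in retina was -0.17 ± 0.16 log2 (SE), with an adjusted p of 0.89 in limma over the 12 libraries. Rpl22, the gene that carries the tag in both genotypes, had values of 1684, 1700 and 1865 in Het against 1689, 1668 and 1739 in KO.

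Rod genes showed no called change. Of 20 rod genes, 20 were tested, 0 were called, 19 were bounded within 2-fold and 11 within 1.5-fold, and their median log2 fold change was 0.00 beside 0.01 for all genes. For this and later lists, the shares over all genes tested were 75.4% within 2-fold and 37.1% within 1.5-fold. Among genes with a mean of 1000 or more they were 96.1% and 76.6%. The summed share of the rod genes was 7.3% ± 0.929 (SD, n = 3) in Het and 7.24% ± 0.405 (SD, n = 3) in KO. Gnat1, the alpha subunit of rod transducin, had values of 124796, 134206 and 101027 in Het against 125812, 121108 and 119289 in KO. All 3 KO values lay within the Het range, and the log2 fold change was 0.05 (-0.31 to 0.40). The rod transcription factor Nrl had a log2 fold change of -0.02 (-0.34 to 0.30). Susd3 had the widest interval of the list, -0.95 to 1.13, and was the only rod gene not bounded within 2-fold.

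Of the genes used by rods and cones together, 20 of 20 were bounded within 2-fold, with a median of 0.02. Prph2, which shapes the outer segment discs, had the highest values, 61601, 82605 and 42088 in Het against 64394, 49527 and 73642 in KO. The exception by p was Guca1a, which encodes a calcium sensor of guanylate cyclase. It had values of 773, 831 and 611 in Het against 1192, 930 and 878 in KO, so the groups did not overlap, with a log2 fold change of 0.45 (0.05 to 0.85, unadjusted p = 0.0324, limma adjusted p = 1).

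Genes of the other retinal neurons showed no called change. All 14 cone genes tested were bounded within 2-fold, with a median of -0.01. Opn1sw, the short-wavelength cone opsin, had values of 5830, 5898 and 4744 in Het against 6234, 5509 and 5563 in KO. Of 16 bipolar genes 15 were bounded, with a median of -0.03, and Prkca, the rod bipolar kinase, led them with 5929, 4174 and 5181 in Het against 5224, 5833 and 3785 in KO. Of 12 amacrine genes 10 were bounded (median 0.01), the exceptions being Slc32a1, the vesicular transporter for inhibitory transmitters, and Th, the enzyme of dopamine synthesis. Of 7 horizontal cell genes 5 were bounded (median -0.12), and all 7 had log2 fold changes below 0, with Septin4, a cytoskeletal GTPase, at -0.02. That median was -0.0046 without KO replicate 3, where Onecut1, a transcription factor of these cells, was at 0.26, and -0.23 without KO replicate 1. All 13 ganglion cell genes were bounded (median 0.00), among them the neurofilament gene Nefl at 4172, 4649 and 4946 in Het against 4785, 5071 and 3542 in KO. None of the genes of these 5 lists had an unadjusted p under 0.05.

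Müller glia, the radial glia of the retina, had 11 of 14 genes bounded and a median of 0.08. Glul, the glutamine synthetase that defines them, had values of 24112, 32427 and 27118 in Het against 24548, 19528 and 30627 in KO, with overlapping groups and a log2 fold change of -0.16 (-0.66 to 0.34). Clu, Apoe and Vim were not bounded. Apoe had values of 2141, 4519 and 2206 in Het against 2365, 2230 and 7550 in KO, highest in the KO library with the most lens RNA. Vim had 1204, 2965 and 4606 in Het against 2043, 2843 and 5327 in KO, lowest in the Het library nearly free of lens RNA. Whether lens RNA contributes to these values was not tested. Without those 2 libraries the Müller median was -0.20.

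The rarer cell types gave wider intervals. Microglial genes took 0.00833% ± 0.00127 (SD, n = 3) of Het and 0.00804% ± 0.00165 (SD, n = 3) of KO libraries, with 6 of 15 tested genes bounded and a median of 0.02. P2ry12, a purine receptor of resting microglia, was the 1 member of 15 without overlap, beside 3.5% of all genes tested, at 37, 27 and 49 in Het against 23, 24 and 25 in KO (unadjusted p = 0.0951, limma adjusted p = 1). Endothelial and pericyte genes, led by Kdr, had 5 of 12 bounded and a median of -0.02. Of 4 astrocyte genes tested, 1 was bounded (median -0.13), and Pax2 had values of 0 to 4. Without the libraries lowest and highest in lens RNA the medians were -0.46 for microglia, -0.48 for endothelium and pericytes and -0.54 for astrocytes. For these 3 groups a change of 2-fold in single genes was mostly not excluded by the intervals at this depth.

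**Figure D3:**
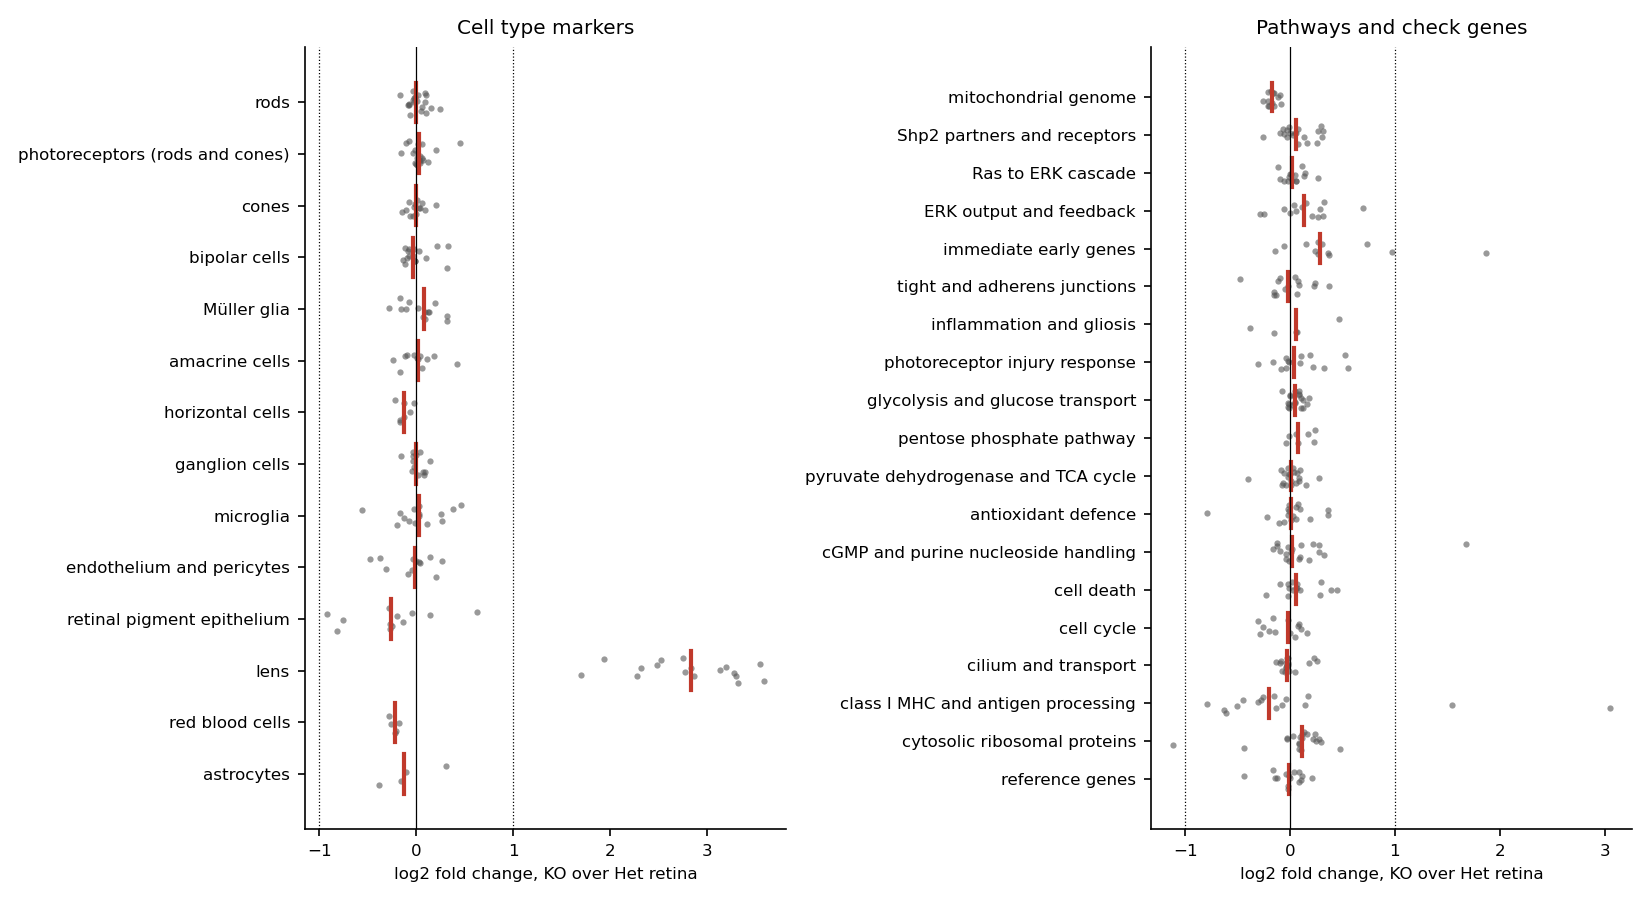
Log2 fold change of KO over Het retina for each tested member (grey points) of 33 gene lists, with the list median as a red line and dotted lines at a 2-fold difference. Medians of the neuronal lists lie between -0.12 and 0.02, lens lies at 2.84, and the sex chromosome list is not drawn.

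Genes of the Shp2 pathway showed no called change. Of 20 receptors and partners of Shp2, 15 were bounded within 2-fold with a median of 0.06 and 0 with an unadjusted p under 0.05. Gab1, the docking protein that recruits Shp2, had values of 330, 386 and 354 in Het against 352, 310 and 379 in KO, a log2 fold change of -0.03 (-0.42 to 0.36). Irs1, an insulin receptor substrate, was the 1 member of 20 without overlap, beside 3.5% of all genes tested, at 136, 172 and 159 in Het against 181, 201 and 184 in KO (log2 fold change 0.29, -0.14 to 0.73). Of 15 genes of the Ras to ERK cascade 12 were bounded, with a median of 0.02. Map2k2, which encodes the kinase MEK2, had the widest interval of the list, with values of 261, 672 and 165 in Het against 363, 187 and 720 in KO (0.27, -1.16 to 1.69).

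Transcriptional targets of ERK showed no called change. Of 14 tested genes of ERK output and feedback, 11 were bounded within 2-fold, 10 had log2 fold changes above 0 and 3 had all KO values above Het (1.75% of all genes tested), with a median of 0.13. With single libraries left out that median ran from 0.02 (without Het replicate 1) to 0.28 (without Het replicate 2). The 3 were Ier3, Spry4 and Dusp6. Ier3, an early response gene, had values of 388, 501 and 387 in Het against 738, 652 and 645 in KO, with a clear gap between the groups. Its log2 fold change was 0.69 (0.32 to 1.07), or 1.62-fold, at an unadjusted p of 0.00287 and a limma adjusted p of 1. Dusp6, an ERK phosphatase, had values of 131, 158 and 159 in Het against 205, 166 and 184 in KO (0.32, -0.13 to 0.77). The feedback inhibitor Spry4 had 186, 189 and 175 in Het against 264, 199 and 197 in KO (0.26, -0.16 to 0.69).

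Among 12 tested immediate early genes, which respond within minutes to growth factors and neuronal activity, 10 had log2 fold changes above 0 and the median was 0.29, beside 0.01 for all genes. That median was 0.10 without Het replicate 3 and 0.46 without Het replicate 2, the ends of its range over single libraries left out. Egr1, a zinc finger transcription factor, had values of 115, 252 and 98 in Het against 844, 432 and 377 in KO. The groups did not overlap, KO replicate 1 was highest, and the log2 fold change was 1.87 (0.90 to 2.83), or 3.64-fold, at an unadjusted p of 0.00224 and a limma adjusted p of 1. Fos had 104, 184 and 93 in Het against 243, 170 and 197 in KO (0.74, 0.05 to 1.42, unadjusted p = 0.0381, limma adjusted p = 1), with the highest Het value above the lowest KO value. Only 5 of the 12 were bounded within 2-fold. In the rod-enriched libraries Egr1 had values of 82, 189 and 62 in Het against 1019, 564 and 460 in KO, and the effect in rods minus that in retina was 0.95 ± 0.68 log2 (SE, limma adjusted p = 0.888).

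Junction genes were bounded for 10 of 15 tested, with a median of -0.02. Ocln, a tight junction protein, had low values of 50, 44 and 60 in Het against 49, 38 and 51 in KO, which overlapped, and a log2 fold change of -0.14 (-0.73 to 0.46). Crb1, which organises the apical membrane of photoreceptors and Müller glia, had 9329, 7046 and 10169 in Het against 7765, 9306 and 6536 in KO (-0.15, -0.59 to 0.29). Cldn1, Cldn2 and Cldn19 were not bounded and were highest in replicate 3 of both genotypes, as the pigment epithelium markers were. For Cldn19 the values were 39, 34 and 64 in Het against 17, 26 and 137 in KO. The part of pigment epithelium RNA in them was not tested. Cldn5, on the same list and also not bounded, did not share this pattern in Het. It had 29, 39 and 18 in Het against 22, 8 and 36 in KO. Replicate 3 was the lowest of the Het values but the highest of the KO values.

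Of 14 genes of inflammation and gliosis, 5 had enough signal to be tested and 0 were called. Il10, Ifng and Cxcl1 were listed at 0 in all 6 libraries, and Il1b had values of 5, 0 and 0 in Het against 0, 3 and 0 in KO. Gfap, the filament of reactive glia, had values of 165, 324 and 151 in Het against 119, 155 and 190 in KO, a log2 fold change of -0.38 (-1.17 to 0.41). Of 14 tested genes of the photoreceptor injury response, 6 were bounded and the median was 0.04, which turned to -0.31 without KO replicate 3 and was 0.18 without KO replicate 2. Edn2, an endothelin made by injured photoreceptors, had values of 26, 124 and 25 in Het against 32, 19 and 66 in KO, and Serpina3n, an acute-phase gene of glia, 127, 300 and 632 in Het against 138, 227 and 1099 in KO. The spread inside each genotype exceeded the difference between genotypes for both. Cell death genes had 11 of 15 bounded and a median of 0.05. Bcl2l1, an inhibitor of apoptosis, had values of 888, 1116 and 662 in Het against 926, 667 and 986 in KO.

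Genes of energy metabolism showed no called change, and their counts of bounded genes stand beside 75.4% of all genes. Of 20 glycolysis genes 17 were bounded within 2-fold, with a median of 0.05 and 0 at an unadjusted p under 0.05. Hk2, the hexokinase abundant in photoreceptors, had values of 9919, 10652 and 6750 in Het against 9846, 7666 and 8690 in KO (-0.02, -0.48 to 0.43). Pkm, pyruvate kinase, had 25157, 39013 and 16160 in Het against 27974, 21730 and 36533 in KO (0.18, -0.60 to 0.96). Its values were highest in Het replicate 2 and KO replicate 3, the libraries whose high-GC genes were raised most. With the GC trend of each library removed, 0 genes were called and 14040 were bounded within 2-fold. Slc2a1, the glucose transporter Glut1, had 1556, 2689 and 1508 in Het against 1853, 1311 and 3527 in KO and was not bounded (0.16, -0.75 to 1.07). Ldha, lactate dehydrogenase, had a log2 fold change of 0.09 (-0.34 to 0.52), Ldhb 0.12 (-0.31 to 0.56), Hk1 -0.02 (-0.51 to 0.47) and Aldoc 0.08 (-0.44 to 0.61). Of 7 pentose phosphate genes 5 were bounded (median 0.08).

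Of 21 genes of pyruvate dehydrogenase and the TCA cycle 20 were bounded within 2-fold and 16 within 1.5-fold, with a median of 0.00. Pdha1, a pyruvate dehydrogenase subunit, had values of 1266, 1170 and 1326 in Het against 1216, 1472 and 1199 in KO (0.06, -0.27 to 0.39). Pdk1, a kinase that inhibits this dehydrogenase, was the list's gene with an unadjusted p under 0.05. It had values of 758, 643 and 882 in Het against 575, 610 and 511 in KO, with no overlap and a log2 fold change of -0.40 (-0.79 to -0.02, unadjusted p = 0.0415, limma adjusted p = 1). All 13 protein-coding mitochondrial genes were bounded within 2-fold and had log2 fold changes below 0, from -0.26 for mt-Atp8 to -0.08 for mt-Nd6. Their summed share was 6.8%, 5.3% and 9.58% in Het against 6.33%, 6.9% and 5.57% in KO, with Het replicate 3 highest and the groups overlapping. The shared direction rested on that library, since the list median of -0.17 was 0.05 without it and -0.37 without Het replicate 2. Among the antioxidant genes 13 of 17 were bounded (median 0.01). Hmox1, the heme oxygenase, had the widest interval, with values of 43, 220 and 50 in Het against 41, 32 and 720 in KO.

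Of 13 tested cell cycle genes 12 were bounded (median -0.03), and Mki67, a proliferation marker, had values of 1 to 12 in the 6 libraries. Of 18 cilium and transport genes 16 were bounded (median -0.03). Of 20 cytosolic ribosomal protein genes 12 were bounded, with a median of 0.11 (-0.07 without KO replicate 3, 0.23 without Het replicate 2), and Rps18 had the lowest log2 fold change of the list. Of 15 reference genes 12 were bounded (median -0.02), and Eef1a1, the translation elongation factor, had values of 38106, 40079 and 44602 in Het against 39676, 41316 and 48463 in KO. The narrowest intervals among genes with a mean of 50 or more were those of Dst, Glo1, Ube2l3, Cap1 and Psmd2, each reaching 0.27 to either side. Dst, a cytoskeletal linker, had values of 3221, 3221 and 3093 in Het against 3276, 3244 and 3113 in KO. Ube2l3, a ubiquitin-conjugating enzyme, had 1688, 1678 and 1653 in Het against 1737, 1695 and 1601 in KO. Values of both genes overlapped between genotypes.

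**Figure D4:**
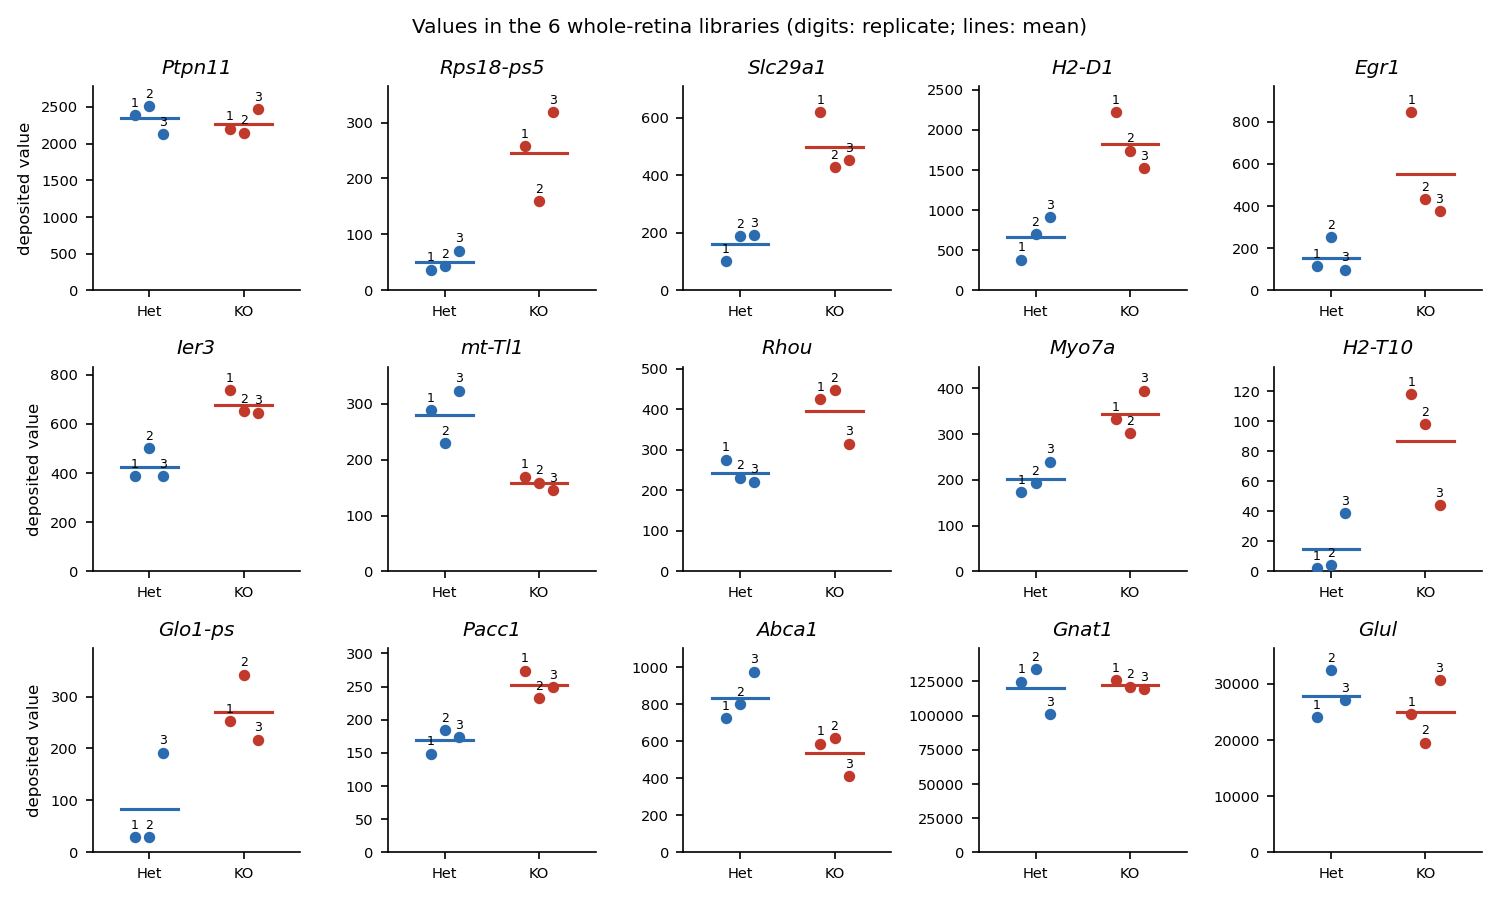
Deposited values (vertical, from 0) of Ptpn11, the 12 named genes and, for comparison, Gnat1 and Glul in each of the 3 Het (blue) and 3 KO (red) libraries, with the replicate number above each point and the mean as a line. Ptpn11, Gnat1 and Glul overlap between genotypes; the 12 named genes were chosen because they do not.

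The 12 genes with the smallest unadjusted p among those without overlap and with a mean of 50 or more were Rps18-ps5, Slc29a1, H2-D1, Egr1, Ier3, mt-Tl1, Rhou, Myo7a, H2-T10, Glo1-ps, Pacc1 and Abca1. All had a limma adjusted p of 1. They were picked for their difference in these libraries, so the gap between groups is a description.

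Slc29a1, the equilibrative nucleoside transporter Ent1 that carries adenosine across the membrane, had values of 101, 189 and 191 in Het against 619, 427 and 452 in KO. Every KO value was above every Het value, with a wide gap. Scaled means were 159.9 ± 52.7 in Het and 500.7 ± 93.3 in KO (SD, n = 3 each), a log2 fold change of 1.68 (1.0 to 2.35) or 3.2-fold, at an unadjusted p of 0.00049. Its paralogs overlapped between genotypes. Slc29a2 had 310, 551 and 212 in Het against 349, 312 and 511 in KO, Slc29a3 had a log2 fold change of -0.01 (-0.61 to 0.59), and Slc29a4 one of -0.17 (-0.89 to 0.56). Of 19 tested genes on the purine and cGMP list, 2 had all KO values above Het, beside 1.75% of all genes tested. They were Slc29a1 and Impdh2. Impdh2, an enzyme of GMP synthesis, had 514, 550 and 532 in Het against 625, 609 and 561 in KO. In all 13 of the 19 tested were bounded and the median was 0.01. In the rod-enriched libraries Slc29a1 had 10, 6 and 304 in Het against 703, 789 and 312 in KO, with Het replicate 3 and KO replicate 3 nearly equal. The effect in rods minus that in retina was 2.66 ± 1.58 log2 (SE, limma adjusted p = 0.888).

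Rps18-ps5, a copy of the small-subunit ribosomal protein gene Rps18, had values of 37, 43 and 71 in Het against 258, 160 and 318 in KO, a log2 fold change of 2.25 (1.43 to 3.08) or 4.77-fold, at an unadjusted p of 0.000265. Rps18 itself had 2281, 3648 and 1237 in Het against 679, 505 and 2805 in KO, which overlapped (-1.12, -2.67 to 0.42). Of the 50-base windows of the Rps18-ps5 transcript, 69.7% also occur in other genes, 339 of 558 of them in Rps18. The coding sequence of Rps18 aligns to the copy over 459 bases with 3 differing bases and 0 gaps, 99.3% identity. The stretches around those 3 bases are shown, since reads that lie inside the coding stretch and miss all of them cannot be told apart between the 2 genes by sequence. The longest identical run was 165 bases. The transcript of the copy is 607 bases long, and reads from its ends outside the coding stretch can differ from Rps18. Positions count from 1 at the A of the start codon, capitals mark the differing base, and the differences from Rps18 to the copy are T11A, A171C and A337C (GENCODE vM21 transcripts, GRCm38).
Rps18, bases 1 to 41: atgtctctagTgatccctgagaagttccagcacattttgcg
Rps18-ps5, bases 1 to 41: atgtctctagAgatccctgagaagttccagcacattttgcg
Rps18, bases 151 to 191: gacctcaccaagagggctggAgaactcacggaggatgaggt
Rps18-ps5, bases 151 to 191: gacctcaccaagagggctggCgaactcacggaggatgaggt
Rps18, bases 317 to 357: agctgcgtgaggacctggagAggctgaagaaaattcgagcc
Rps18-ps5, bases 317 to 357: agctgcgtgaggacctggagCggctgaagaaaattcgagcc

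Other genes of this set also share sequence with relatives, and their values are uncertain to that extent. Glo1-ps, a copy of the glyoxalase gene Glo1, shares 78.5% of its windows with Glo1 and had values of 29, 29 and 192 in Het against 252, 342 and 217 in KO. Its parent Glo1 had 3988, 3781 and 3735 in Het against 3591, 3513 and 3386 in KO, without overlap, and a log2 fold change of -0.12 (-0.39 to 0.15) that lies inside 1.5-fold. H2-T10 is a class I gene of the major histocompatibility complex, annotated as a polymorphic pseudogene. It shares 32.9% of its windows, mostly with H2-T22, and had 2, 4 and 39 in Het against 118, 98 and 44 in KO. H2-T22 had 84, 137 and 65 in Het against 52, 55 and 86 in KO. H2-D1 shares 12.8% of its windows with other genes, 331 in all, and H2-Q1 holds the largest number of them, 152. Gm49909 shares 95.6% of its windows, mostly with Myl12b, and had 1, 5 and 13 in Het against 52, 48 and 102 in KO (log2 fold change 3.28, 1.86 to 4.69, unadjusted p = 0.000776, limma adjusted p = 1). Myl12b, a regulatory light chain of myosin, had 58, 59 and 97 in Het against 61, 90 and 67 in KO. Slc29a1, Egr1, Ier3, Pacc1 and Abca1 share no such window with another gene.

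H2-D1, a classical class I antigen-presenting gene, had values of 382, 698 and 916 in Het against 2224, 1742 and 1527 in KO, well apart, with a log2 fold change of 1.54 (0.81 to 2.28) or 2.92-fold, at an unadjusted p of 0.0014. Of 16 tested genes of class I and antigen processing 4 had log2 fold changes above 0, the median was -0.21, and 4 were bounded within 2-fold. The direction of that median rested on single libraries, since it was -0.54 without KO replicate 3 and 0.08 without KO replicate 2. H2-K1, the other classical gene of the list, had 175, 383 and 233 in Het against 225, 147 and 332 in KO (-0.15, -1.05 to 0.74). B2m, the light chain shared by class I molecules, had 477, 519 and 1031 in Het against 476, 490 and 973 in KO. In the rod-enriched libraries H2-D1 had 323, 519 and 2030 in Het against 5027, 5301 and 2564 in KO, and the effect in rods minus that in retina was 1.14 ± 0.84 log2 (SE, limma adjusted p = 0.888).

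Of the remaining named genes 3 were higher and 2 lower in KO. Rhou, a small GTPase, had values of 276, 231 and 221 in Het against 425, 447 and 315 in KO (0.71, 0.28 to 1.14). Myo7a, an unconventional myosin of photoreceptors and pigment epithelium, had 173, 193 and 240 in Het against 332, 302 and 395 in KO (0.78, 0.29 to 1.27). Pacc1, a proton-activated chloride channel, had 149, 184 and 174 in Het against 274, 233 and 249 in KO (0.59, 0.17 to 1.01). Abca1, the cholesterol exporter, was lower, with 726, 801 and 976 in Het against 587, 616 and 411 in KO (-0.63, -1.08 to -0.17). The mitochondrial leucine tRNA mt-Tl1 had 289, 230 and 324 in Het against 170, 159 and 146 in KO (-0.79, -1.24 to -0.34). Of 12 mitochondrial tRNA genes tested 10 had log2 fold changes below 0, with a median of -0.27 and 2 at an unadjusted p under 0.05, beside a median of 0.01 and a share of 0.83% for all genes tested. The list includes mt-Tl1, which was picked for its p. The libraries were made from polyadenylated RNA, and whether these reads come from mature tRNAs or from longer transcripts was not tested. The 13 protein-coding mitochondrial genes also had log2 fold changes below 0, with a median of -0.17 that was 0.05 without Het replicate 3.

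Genes of chromosome 17 were numerous among those with small p, a feature noticed after the values were seen and given as a description. By Ensembl ID in the GRCm38 annotation, 23 of 795 tested genes on chromosome 17 (2.89%) had an unadjusted p under 0.05, against 108 of 15800 genes placed elsewhere (0.684%). Over the other autosomes and the X, the share ran from 0.129% on chromosome 10 to 1.69% on chromosome 1 (17 of 1003 genes). On chromosome 17, 15 of the 23 were higher in KO and 8 lower. They included Slc29a1, H2-D1, Ier3, H2-T10, Gm49909, Guca1a and, lower in KO, H2-K2, H2-T24 and A930015D03Rik. H2-K2, a class I pseudogene, had values of 86, 116 and 28 in Het against 2, 0 and 40 in KO, and AA388235, a noncoding RNA next to it in the order of these genes, 49, 48 and 32 in Het against 0, 0 and 32 in KO. For both, replicate 3 of each genotype lay close together while replicates 1 and 2 were far apart. Of the 23 genes, KO replicate 3 was the KO library nearest to Het for 18 and Het replicate 3 the Het library nearest to KO for 14. For the 108 genes placed on other chromosomes the same counts were 47 and 35. Dusp1, an ERK and stress kinase phosphatase that is also on this chromosome, had 192, 266 and 201 in Het against 312, 270 and 333 in KO.

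**Figure D5:**
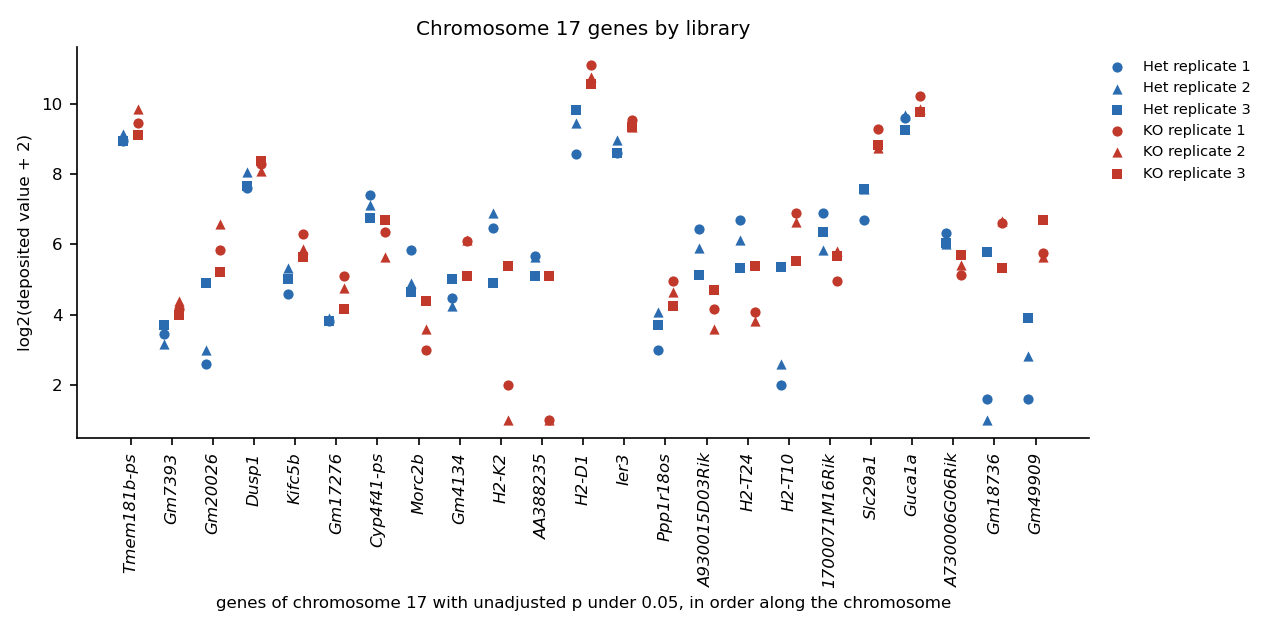
Values on a log2(deposited value + 2) scale (vertical) of the 23 chromosome 17 genes with an unadjusted p under 0.05, in their order along the chromosome (horizontal), blue for Het and red for KO, with 1 symbol per replicate. Squares, replicate 3 of each genotype, often lie between the other libraries of both genotypes.

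A direct test of whether the KO effect in whole retina differed from that in rods called 0 of 17192 genes (0%) at an adjusted p under 0.05 in limma, and 517 (3.01%) at an unadjusted p under 0.05. That fit treated the 12 libraries as separate. The titles call the retina libraries input and the rod libraries bead and number both alike, but do not say that they share tissue. In its deviations from the group mean each retina library correlated more with the rod library of its own number than with the others of its genotype, at 0.43, 0.39 and 0.24 for Het and 0.30, 0.03 and 0.21 for KO. For KO replicate 2 the lead was slight, 0.0271 against 0.0255. Rod library KO replicate 2 was also the only rod library with 0 for Ddx3y and Uty. With retina and rods of the same genotype and number as pairs, limma again called 0 genes, with 722 at an unadjusted p under 0.05. The paired difference for Egr1 was 0.95 ± 0.20 log2 (SE, limma adjusted p = 0.805). The lowest adjusted p of the comparison between whole retinas belonged to Rpl9-ps8, a ribosomal protein pseudogene named after its values were seen, with values of 16, 15 and 14 in Het and a listing at 0 in all 3 KO libraries. Its parent Rpl9 had 6222, 6326 and 6198 in Het against 6291, 6778 and 6708 in KO. In the rod-enriched libraries Rpl9-ps8 had 25, 17 and 172 in Het against 0, 24 and 0 in KO.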

How the data were processed

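Retinal cDNA libraries were sequenced for 3 Het and 3 KO whole-retina samples. The authors deposited 1 table of scaled gene counts, a signal in which each library was multiplied by its own factor and rounded. Raw counts were not used here. The record names CASAVA 1.8.2, HISAT2, DESeq2, edgeR and GRCm39 without their roles. The counter and strand setting are not given in the sources used here. Values were rescaled by trimmed mean of M-values and tested with limma 3.58.1 (R 4.3.3, trend and robust) on log2(value + 2), for genes with a value of 10 or more in 3 libraries and a sum of 15 or more, with Benjamini-Hochberg adjustment. Figures used matplotlib 3.10.9.

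For 3 against 3 libraries an exact permutation test cannot go below p = 0.1, so no such test was used. The comparison, gene lists and their members were chosen with earlier results of these data known, while libraries entered by label alone. Genes were named as follows: Ptpn11; genes the study names for the retina, with relatives; the 12 smallest unadjusted p without overlap at a mean of 50 or more; up to 4 abundant members of each of 34 lists, with those at p under 0.05 or with the widest interval; and the 5 narrowest intervals. Others were named after their values were seen. Chromosomes come from GENCODE vM21 (GRCm38), matched by Ensembl ID for 98.4% of tested genes, and no coordinates are printed because the builds differ. The limma and depth steps were tested on simulated data. The limma simulation drew independent noise for each gene, without the GC and lens differences seen between these libraries. It therefore does not show how calls and intervals perform under those differences. Alternatives covered scaling, pseudocount, filters, GC trend, replicate block, library weights, and leaving out libraries. Values of some list members are not reported here.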

Additional observations from a re-analysis of the deposited data

Results flagged for a closer look

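Cap1, a regulator of actin filaments and 1 of the 5 genes with the narrowest intervals, had all KO values above Het in whole retina (1749, 1680 and 1721 in Het, 1827, 1822 and 1759 in KO) and all KO values below Het in the rod-enriched libraries (1619, 1564 and 1635 in Het, 1432, 1412 and 1505 in KO). The differences lay in opposite directions, but the effect in rods minus that in retina was -0.092 ± 0.11 log2 (SE) and did not pass the test of the difference (limma adjusted p = 0.893).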

How the results depend on the processing

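The count of called genes was 0 under the other scalings, pseudocounts, filters, the removed GC trend and the replicate block. It was 1 without the trend and robust options (Rpl9-ps8, limma adjusted p = 0.00382), and ranged from 0 to 1 when single replicates were left out. The calls were Gm11754 without Het replicate 1 (values 91, 0 and 0 in Het and 106, 86 and 159 in KO) and Spc25 without KO replicate 1 (1281, 1062 and 1594 in Het and 1716, 18 and 14 in KO), so in each 1 library decided the call. With estimated library weights it was 2165, but the weights, 32 for Het replicate 1 and 13.9 for KO replicate 1 against 0.175 to 0.32 for the others, had not converged and leave in effect a comparison of 2 libraries. The genes bounded within 2-fold ranged from 10575 to 11869 when single replicates were left out, and were 9350 without the libraries lowest and highest in lens RNA. On average, same-numbered libraries did not deviate together (mean correlation -0.11, from -0.58 to 0.40, against 0.06 for different numbers). With so few pairs of such wide range, these correlations cannot show whether the numbers pair the libraries. The replicate block gave 0 calls and 11051 bounded genes.

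The Ptpn11 log2 fold change ranged from -0.121 to 0.023 when single replicates were left out, and turned positive without Het replicate 2 (0.023), KO replicate 1 (0.013) or KO replicate 2 (0.019). With library weights, in effect Het replicate 1 against KO replicate 1, it was -0.118. Of 646 list medians under alternatives 21 moved beyond the spread. With library weights they were 0.13 for bipolar cells, -2.18 for pigment epithelium, 6.92 for lens, 0.325 for ERK output, -0.46 for inflammation and -0.11 for cell cycle. Without the lowest and highest lens libraries, a setting chosen after seeing the data, they were 0.075 for cones, -0.20 for Müller glia, -0.46 for microglia, -0.48 for endothelium, -1.39 for lens, -0.54 for astrocytes, -0.091 for Shp2 partners, -0.15 for cell cycle, 0.15 for cilium and -0.73 for class I. With single replicates left out, 29 of the 34 list medians took both signs. The range was -1.63 to 0.71 for pigment epithelium, -0.21 to 4.77 for lens, -0.91 to 0.43 for red blood cells, -0.27 to 0.42 for inflammation, -0.15 to 0.25 for glycolysis, -0.21 to 0.27 for microglia, -0.052 to 0.069 for cones, -0.159 to 0.038 for cell cycle and -0.097 to 0.075 for cilium. The cause was not tested. The 12 genes named by p and Gm49909 kept their direction in all 246 alternatives, and 12 of these, with library weights, passed the threshold. The 12 were picked for groups that do not overlap, and Gm49909, which the study names, also had groups without overlap. This fixes the direction in the alternatives that leave out a library, so the count is no sign of stability.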
